A study of Homo sapiens with 8 samples.

Results

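NXN encodes nucleoredoxin, and its pre-mRNA carried one dense cluster of RBFOX2 crosslinking in HEK293T cells, present in all 4 libraries. The members described here are the called peaks on the minus strand of chromosome 17 whose midpoint lies in the RefSeq span of NXN (GRCh38, 799310 to 979776, 180467 nt). They number 577 of the 1118316 called peaks in the 4 deposited lists, with 157, 142, 145 and 133 in replicates 1 to 4. NXN was chosen by the authors' folds and p-values in these same lists, so its levels are given as a description, without a test of enrichment. A called peak is a stretch that the authors' peak caller marked in the IP library, whether or not it stood above the input.

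RBFOX2 was immunoprecipitated from HEK293T cells, an established human embryonic kidney line that received no treatment other than ultraviolet crosslinking (254 nm, 400 mJ per cm2). The 4 IP libraries were each set against their own input, a 2% portion of the same sample, so both groups share the cell line and the crosslinking. The labels do not say whether the 4 replicates were separate cultures, so the SDs below measure the spread between these libraries, which may be technical. For each peak the lists give a −log10 p and a log2 fold that compare IP with paired input, both the authors' own. Called peaks per library ranged from 267691 to 288305 over the whole series, and the sequencing depth behind each value is unknown.

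Nucleoredoxin is a thioredoxin-fold oxidoreductase. It is known as a partner of Dishevelled, the cytoplasmic relay of Wnt signals, and variants of the gene cause a recessive form of Robinow syndrome. Genes of the non-canonical Wnt pathway are also mutated in Robinow syndrome. RBFOX2 regulates splicing. It binds GCATG in RNA, mostly in introns, and often far from the exons it controls.

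RefSeq annotates 2 transcription starts for NXN, and the cluster lies between them. The sequences around both starts are shown because they mark which transcripts can contain the cluster. Each line holds the 100 bases before the start in lower case and the first 10 transcribed bases in capitals, on the minus strand, from the RefSeq promoter table of GRCh38.p14 (chr17:979767-979876 for the first start and chr17:864102-864211 for the second).
NXN start 1: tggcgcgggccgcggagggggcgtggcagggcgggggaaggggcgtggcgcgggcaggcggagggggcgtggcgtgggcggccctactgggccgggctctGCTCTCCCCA
NXN start 2: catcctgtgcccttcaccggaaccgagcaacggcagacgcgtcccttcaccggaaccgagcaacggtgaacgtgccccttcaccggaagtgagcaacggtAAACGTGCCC

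The first start lies at 979776 and the second at 864111, which is 115665 nt further along the gene. GC content was 83.3% in the 300-base window of the first start and 50.3% in that of the second, against a median of 58.7% over the 35116 windows of the table. Neither window held GCATG on either strand, while 29.5% of all windows did. One called peak overlapped the first window, by 23 nt, in replicate 3 (979627 to 979749, log2 fold −0.999, −log10 p of 0). No called peak overlapped the second.

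Of the called peaks in NXN, 6, 8, 6 and 7 were enriched in replicates 1 to 4, where enriched means a log2 fold of at least 3 with a −log10 p of at least 3. The share of called peaks that were enriched was 3.82%, 5.63%, 4.14% and 5.26% (mean 4.71% ± 0.871, SD, n = 4). Over all called peaks of the series the share was 0.818%, and NXN was above the share of the whole list in each library. Both shares come from the contrast on which the gene was chosen, so nothing further is read from their difference.

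The enriched peaks sat together. Of the 27 enriched peaks in NXN, 25 (92.6%) fell inside 969 nt, from 891562 to 892530. That stretch is 0.537% of the gene span. It begins 87246 nt after the first start and ends 27451 nt before the second. A transcript that begins at the second start would therefore not contain it. Exon positions were not used here, so the stretch is placed by its distance to the starts alone. In each library 7 called peaks lay in the cluster, and 6, 7, 5 and 7 of them were enriched.

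**Figure D1:**
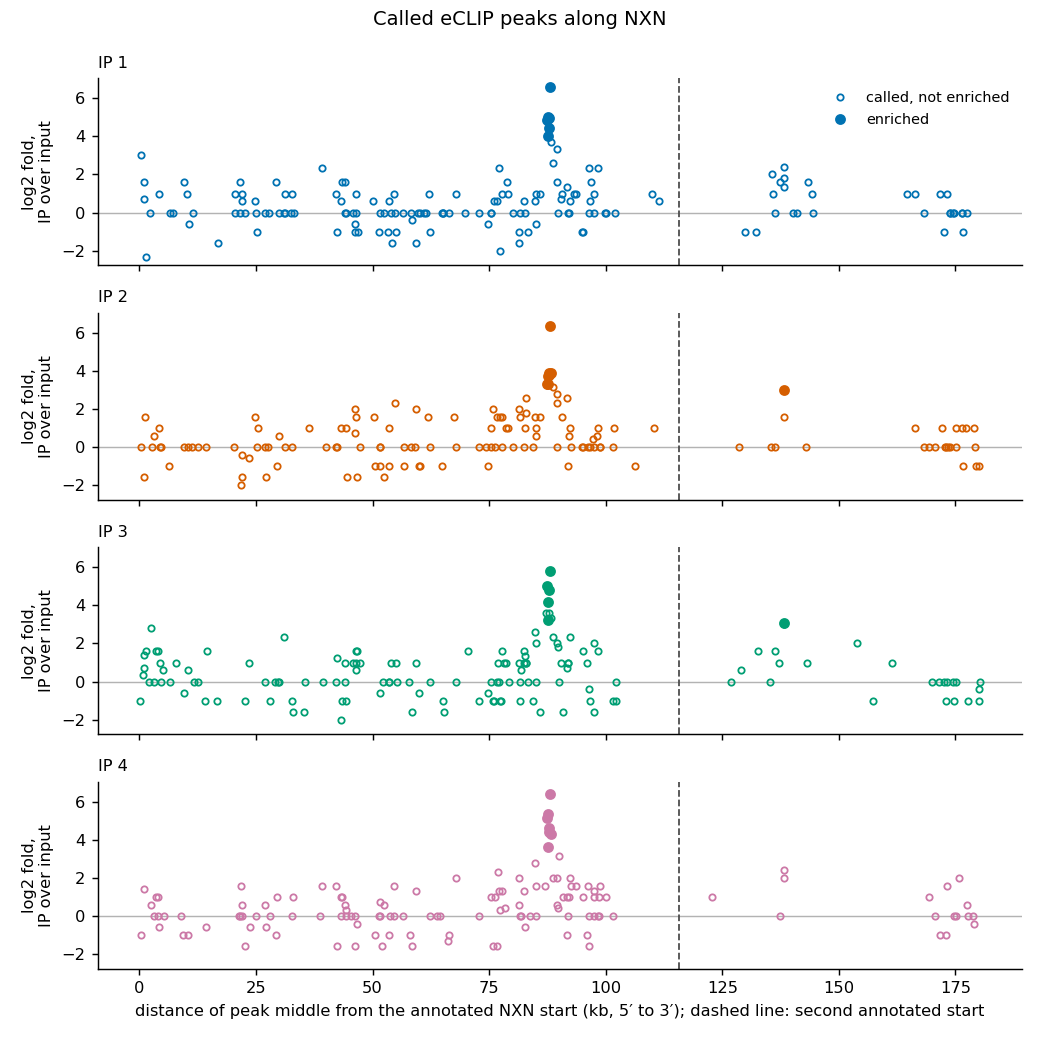
Log2 fold of each called peak (vertical axis) against the distance of its middle from the annotated NXN start in kb, with 1 panel per IP library. Filled points are enriched peaks, open points the other called peaks, and the dashed line is the second start. The filled points stack at about 88 kb in all 4 libraries, and a lone filled point at about 138 kb appears in IP 2 and IP 3.

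When enriched peaks of the 4 libraries were merged at 1 nt of overlap, NXN held 4 regions, and 3 of them had an enriched peak in all 4 libraries. Over the series 552 of 3371 regions did, or 16.4%. In the order of transcription the 3 regions covered 892369 to 892530, 892088 to 892288 and 891562 to 892036. Their mean log2 folds, each library represented by its peak with the highest −log10 p, were 4.60 ± 0.86, 4.57 ± 0.74 and 6.30 ± 0.33 (SD, n = 4 for each). By mean fold the last of them ranked 11th among the 552, and by its lowest library 7th. The others ranked 165th and 171st by mean fold.

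The cluster had the same parts in every library. Grouping called peaks that overlapped by at least 50% of the shorter one gave 7 segments, each with exactly 1 peak per library. They are numbered here from 5′ to 3′, so segment 1 lies at the highest coordinates.

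**Figure D2:**
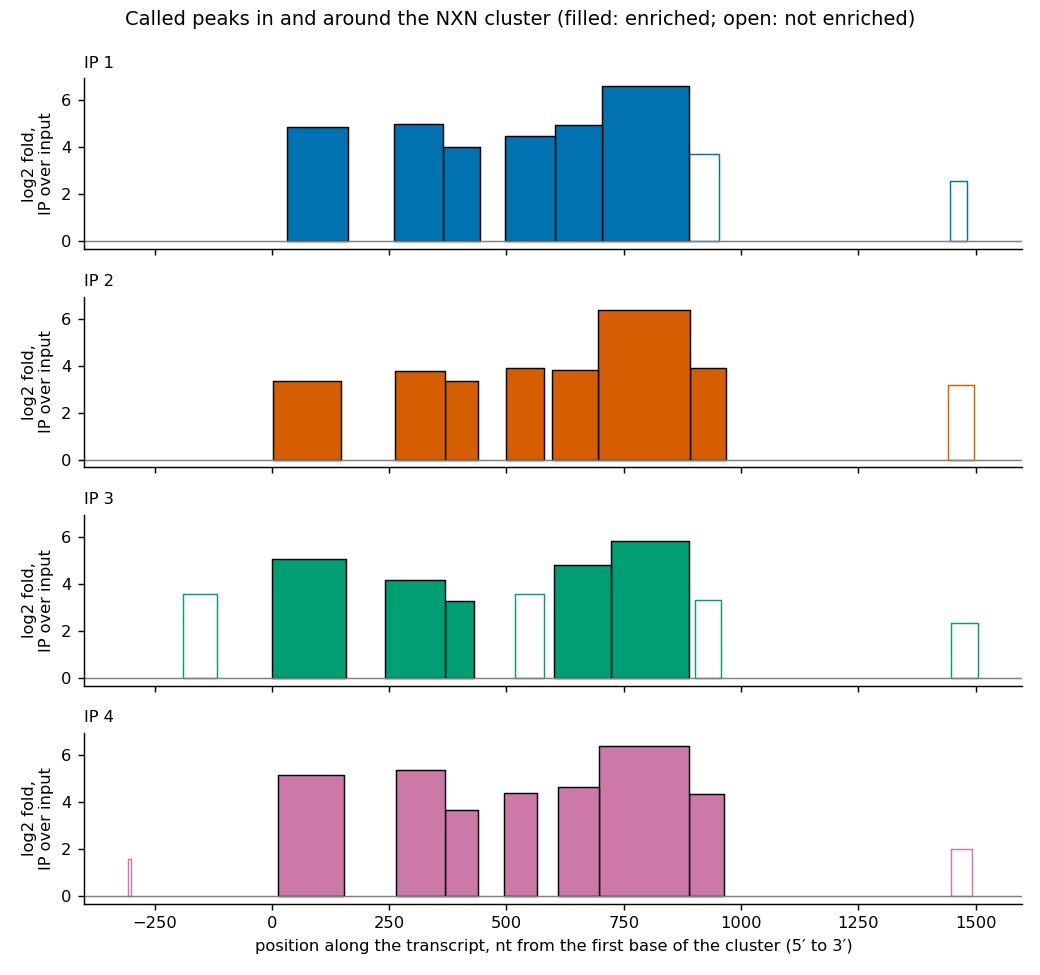
Called peaks in and around the cluster as boxes, from the first to the last base of each peak (horizontal axis, nt from the first base of the cluster, 5′ to 3′) and up to its log2 fold (vertical axis), with 1 panel per IP library. Filled boxes are enriched. The same 7 boxes recur in each panel, the tallest at segment 6, and the isolated box to the right of the cluster is not enriched in any panel.

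Segment 6 (891640 to 891835) was the summit. Replicates 1 to 4 gave it log2 folds of 6.60, 6.36, 5.83 and 6.39, with a mean of 6.30 ± 0.33 (SD, n = 4). The −log10 p values were 27.2, 23.1, 15.7 and 23.4. Replicate 3 was lowest on both measures, and no other segment reached the summit's lowest fold in any library. The summit was also the longest peak of NXN in each library, at 168 to 196 nt. Its boundary at the 3′ side fell within 2 nt across the 4 libraries, at 891642, 891640, 891641 and 891641.

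Segments 1, 2 and 5 had the next highest means. Segment 1 (892369 to 892530) had log2 folds of 4.86, 3.32, 5.05 and 5.17 (mean 4.60 ± 0.86). Segment 2 (892161 to 892288) had 5.00, 3.76, 4.17 and 5.36 (mean 4.57 ± 0.74). Segment 5 (891809 to 891932), which adjoins the summit, had 4.95, 3.81, 4.81 and 4.64 (mean 4.55 ± 0.51, SD, n = 4 for each). Replicate 2 was the lowest library in all 3 of these segments. It was not the lowest at the summit or in segments 3, 4 and 7.

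Segments 3, 4 and 7 had the lowest means. Segment 3 (892088 to 892165) had log2 folds of 4.00, 3.32, 3.25 and 3.64 (mean 3.55 ± 0.34). Segment 4 (891928 to 892036) had 4.46, 3.91, 3.59 and 4.39 (mean 4.09 ± 0.41). Segment 7 (891562 to 891641) had 3.70, 3.91, 3.32 and 4.32 (mean 3.81 ± 0.42, SD, n = 4 for each). Replicate 3 was lowest in each of the 3. All 28 peaks of the cluster had a log2 fold above 3, and the 3 that were not enriched missed the limit on p alone.

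Those 3 peaks had a −log10 p between 2.20 and 2.74, below the limit of 3. Segment 7 had a −log10 p of 2.74 in replicate 1 and 2.20 in replicate 3, against 3.56 and 4.68 in replicates 2 and 4. Segment 4 had 2.74 in replicate 3, against 5.24, 3.56 and 4.96 in replicates 1, 2 and 4. Segments 1, 2, 3, 5 and 6 were thus enriched in all 4 libraries, segment 4 in 3 and segment 7 in 2.

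Of the steps between neighbours in the order of their means, only the one from the summit down to segment 1 was larger than the spread between libraries. Segment 6 stood 1.70 ± 0.97 above segment 1 on the log2 scale and was higher in 4 of 4 libraries. Segment 1 stood 0.03 ± 0.58 above segment 2 and was higher in 1 of 4 libraries. The remaining steps, from segment 2 to 5, 5 to 4, 4 to 7 and 7 to 3, were 0.02 to 0.47, less than the larger SD of the segments compared. Of the 15 pairs of segments below the summit, 3 differed by more than the larger of their SDs and in the same direction in 4 of 4 libraries. In these pairs segment 3 lay below segment 2 by 1.02 ± 0.53, below segment 5 by 1.00 ± 0.44 and below segment 4 by 0.53 ± 0.18 (SD of the differences, n = 4). The other 12 pairs did not meet both conditions. Neighbouring peaks of a list come from the same reads and caller and are not independent of each other.

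**Figure D3:**
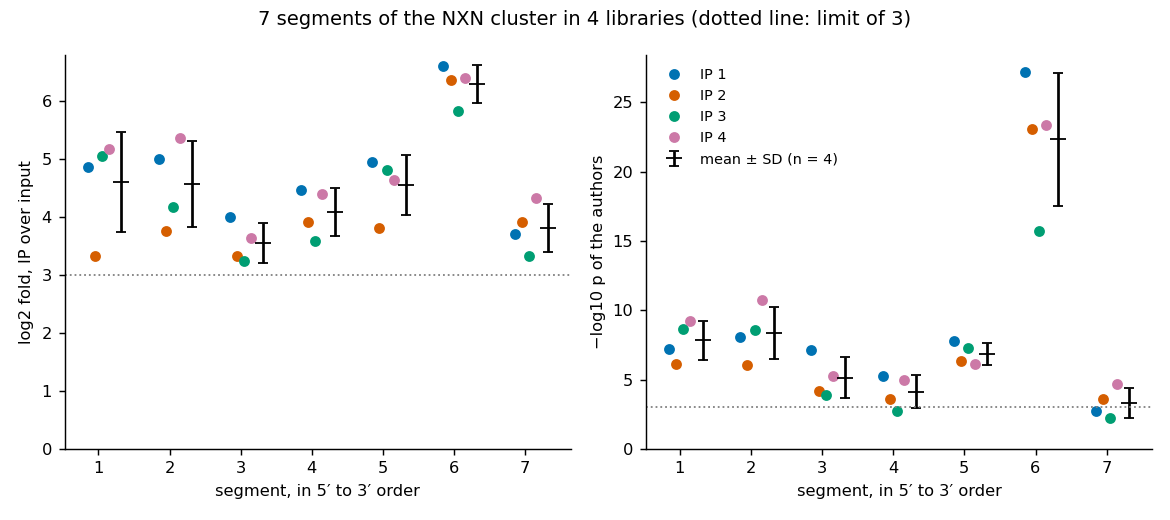
Log2 fold (left) and −log10 p (right) of the 7 segments, numbered 5′ to 3′ on the horizontal axis. Points are the 4 IP libraries, black marks the mean with its SD, and the dotted line the limit of 3. Segment 6 stands above all others on both scales, and the points under the dotted line on the right are segment 4 in IP 3 and segment 7 in IP 1 and IP 3.

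Inside the cluster, 2 stretches held no called peak in any library, 80 nt between segments 1 and 2 (892289 to 892368) and 51 nt between segments 3 and 4 (892037 to 892087). Of the 969 nt of the cluster, 661 (68.2%) were covered in all 4 libraries. Several neighbouring peaks touched without a gap, at 4, 3, 2 and 3 junctions in replicates 1 to 4. The lists hold no read coverage, so whether the signal ran on across these junctions was not tested.

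Peaks close to the cluster tended to higher folds than those farther off. Within 5 kb on either side there were 17, 19, 22 and 19 called peaks, none of them enriched. The share with a log2 fold above 0.5 was 64.7%, 73.7%, 72.7% and 68.4%. Beyond 5 kb the same share was 39.1%, 33.6%, 37.9% and 38.3%, so the libraries' values did not overlap between the near and the far peaks. Over all called peaks of the series the share was 31.4% ± 1.35 (SD, n = 4). The distance of 5 kb was set after the positions had been seen.

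Outside the cluster, 5 segments were called in all 4 libraries and averaged a log2 fold of 1.5 or more. Of these, 3 lay within 2325 nt of it. At 473 nt past its 3′ end, the segment from 891026 to 891088 had log2 folds of 2.58, 3.17, 2.32 and 2.00 (mean 2.52 ± 0.50). At 1193 nt past the same end, the segment from 890289 to 890368 had 3.32, 2.81, 2.00 and 2.00 (mean 2.53 ± 0.65). The third, from 894856 to 894963 on the 5′ side, had 0.58, 1.59, 2.59 and 2.81 (mean 1.89 ± 1.02, SD, n = 4 for each). None of the 3 reached a −log10 p of 3 in any library, and the last varied most between libraries.

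A second site lay downstream of the second start. The segment from 841399 to 841551, about 138 kb into the gene, had log2 folds of 2.39, 3.001, 3.06 and 2.41 (mean 2.72 ± 0.36, SD, n = 4). Its −log10 p was 3.04, 4.57, 4.82 and 2.35. It was enriched in replicates 2 and 3, just inside the limit on the fold. Replicates 1 and 4 fell short of that limit, and replicate 4 also missed the limit on p. An adjoining segment (841537 to 841662) averaged 2.10 ± 0.62 and was not enriched in any library. A primary transcript from either start that runs to the end of the gene would contain this site.

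Outside the cluster few NXN peaks were enriched. There 126 to 150 peaks were called per library, the second site included, and 0, 1, 1 and 0 were enriched in replicates 1 to 4. Their median log2 fold lay between −0.000866 and 0.00141. In each library this was the commonest value of the whole list and also its median, so it says little about NXN. Of the peaks outside the cluster, 41.9% ± 1.86 exceeded a log2 fold of 0.5, beside 31.4% ± 1.35 over the series (SD, n = 4). Merging all called peaks of NXN gave 314 regions, of which 185 were called in 1 library, 59 in 2, 34 in 3 and 36 in all 4. The 36 are 11.5% of the regions in NXN, beside 7.06% over the series. Across these 36 regions Pearson's r of the log2 fold between libraries was 0.63 to 0.77 over the 6 pairs. Across the 33 outside the cluster it was 0.24 to 0.38, and over the series 0.52 to 0.53. Regions share libraries and many folds rest on few reads, so these coefficients only describe the lists. Of the 33 regions, 7 had a log2 fold above 0.5 in each library and 0 had one below −0.5 in each. Over the series more called peaks lay above 0.5 (mean 31.4%) than below −0.5 (mean 23.6%). The same counts were not made for the regions of the series, so nothing is read from them about NXN.

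Called peaks were spread unevenly along the gene. Between the starts there were 129, 118, 121 and 117 called peaks, or 1.05 ± 0.047 per kb (SD, n = 4). After the second start there were 28, 24, 24 and 16, or 0.355 ± 0.078 per kb. The density was higher between the starts in each library, and the values of the 2 parts did not overlap. How density changes along other genes was not examined, so this is not read as a trait of NXN or of its second start. The densest stretch of 10 kb was the one from 80 to 90 kb, which holds the cluster, with 22 to 27 called peaks per library. The next, from 90 to 100 kb, had 13 to 20.

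Peaks then became rare before the second start was reached. From 100 to 110 kb there were 2 or 3 called peaks per library, and from 110 to 120 kb at most 1. The longest stretch with no called peak in any library was 11302 nt (857007 to 868308), and the second start lies inside it. The count rose again from 170 to 180 kb, near the annotated end of the gene, to 11, 14, 9 and 11. None of the peaks there was enriched. The first kb of the gene held 1 to 3 called peaks per library and the last kb 0 to 3. The same number of cells is recorded for every IP and input sample. How much RNA lay behind these densities cannot be told from the lists.

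**Figure D4:**
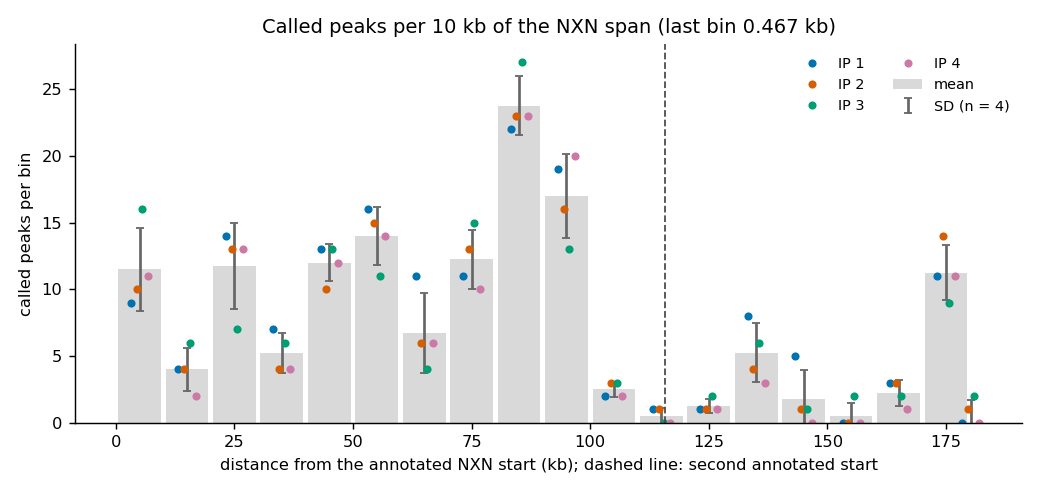
Called peaks per 10 kb bin (vertical axis) along the NXN span (horizontal axis, kb from the annotated start). Grey bars are the mean of 4 libraries with the SD, points the single libraries, and the dashed line the second start. The bin from 80 to 90 kb is highest at 22 to 27 peaks, and the 3 bins from 100 to 130 kb hold 0 to 3.

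The signal was confined to 1 strand of the span in these lists. On the plus strand 0 peaks were called in each of the 4 libraries. That was also true of 2635 (83.5%) of the 3156 protein-coding genes with at least 100 called peaks, so it is the usual state. Of the non-coding RNA genes annotated inside NXN, the span of LOC124903894 held 2, 1, 3 and 0 of the called peaks. That of LOC101927727 held 1 in replicate 1, and none of these peaks was enriched. They were counted by position alone, without regard to the strand of these genes, so they are not assigned to these RNAs. The cluster overlapped neither span.

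Compared with other protein-coding genes, NXN was high in both called and enriched peaks. A called peak was found in 13367 of the 19879 protein-coding genes. Of those 13367, 1115 (8.34%) held an enriched peak and 280 (2.09%) a region enriched in all 4 libraries. By called peaks NXN ranked 146th and by enriched peaks 80th, a rank shared with 3 other genes. With 3 regions enriched in all 4 libraries it ranked 34th, together with 19 others. Per length of the span it had 3.197 called peaks per kb over the 4 libraries together, beside a median of 1.86 for the genes with at least 100 called peaks. By this density it ranked 700th among those 3156 genes, lower than by its number of called peaks.

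The cluster can be set beside others of its kind. Joining enriched peaks of all libraries across gaps of up to 100 nt gave 2375 clusters in the series, and 463 of them had all 4 libraries. The one in NXN had 25 enriched peaks and 969 nt, against medians of 8 peaks and 380 nt among the 463. By its number of peaks it ranked 54th, level with 4 others, and 41 clusters were longer. At least 5 enriched peaks in every library, as in NXN, were found in 63 clusters. The number of peaks depends on how the caller divides a stretch, so these ranks describe the lists only.

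The 5 genes most like NXN, by the distance over 8 values (the log2 of 1 plus called and of 1 plus enriched peaks in each of 4 libraries), were ADARB1, CABIN1, MPRIP, ATP11A and MICAL3. ADARB1, an RNA-editing deaminase, was nearest at a distance of 0.59, with 29 enriched of 497 called peaks. MICAL3, of a family of flavoprotein monooxygenases, was the farthest of the 5 at 1.16, with 29 of 834. They differed in how tightly the enriched peaks sat. The largest share inside 1 kb was 92.6% in NXN, 89.7% in ADARB1, 94.4% in ATP11A, a phospholipid flippase, and 63.6% in MPRIP, a myosin phosphatase interactor. It was 48.1% in CABIN1, an inhibitor of calcineurin, and 62.1% in MICAL3.

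**Figure D5:**
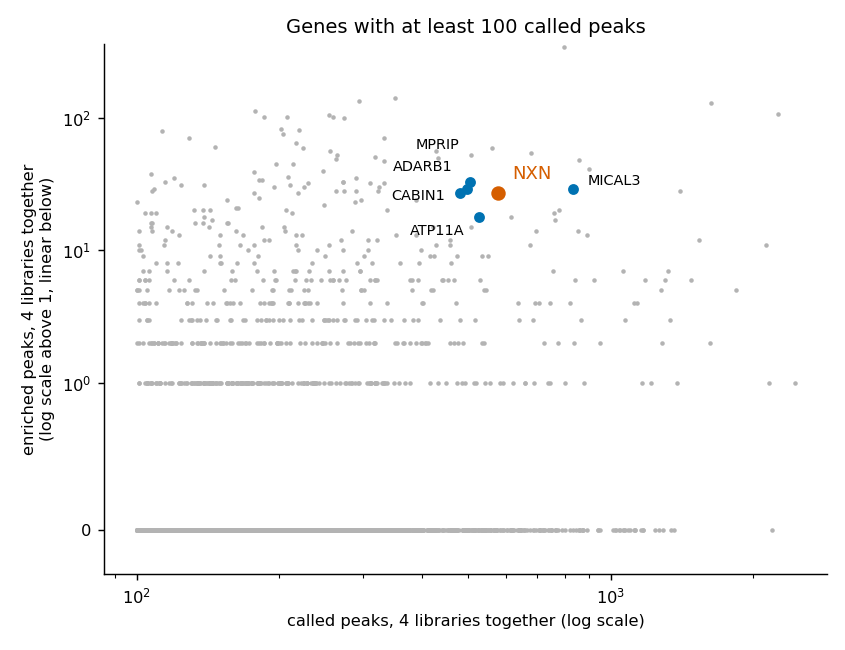
Enriched peaks (vertical axis, log scale above 1) against called peaks (horizontal axis, log scale), 4 libraries together, for protein-coding genes with at least 100 called peaks. NXN is the orange point at 577 called and 27 enriched peaks, and the 5 genes most like it are blue. Most grey points lie at 0 enriched peaks.

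Of 36 other genes of thioredoxin-fold and related proteins, 34 had called peaks, beside 13367 of all 19879 protein-coding genes. An enriched peak was found in 0 of them, with 0 enriched among 1944 called peaks. Beside these stand 8.34% of all protein-coding genes with a called peak that held an enriched one. Of the called peaks in all protein-coding genes, 0.847% were enriched. The count rests on the limits of 3, and no test was run on the list. TXNRD2, the mitochondrial thioredoxin reductase, had the most called peaks of the list, 214, and NXNL1 and NXNL2, the genes named as nucleoredoxin-like, had 0. The median was 46 called peaks per gene, against 577 in NXN and 16 over all protein-coding genes.

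Among 31 genes of the Dishevelled and Wnt pathway, 31 had called peaks, beside 13367 of all 19879 protein-coding genes. Of the 31, 5 had an enriched peak (16.1%, beside 8.34% of all genes with a called peak). A region enriched in all 4 libraries was held by 1 (3.23%, beside 2.09%). The median was 99 called peaks per gene in this list, against 16 over all protein-coding genes, so these shares of genes do not compare like with like. Of the called peaks in these genes 1.03% were enriched, beside 0.847% over all protein-coding genes. Of the 49 enriched peaks in the list, 30 lay in CSNK1D. DVL1, which encodes a Dishevelled that nucleoredoxin binds, had 4 enriched of 99 called peaks. DVL2 had 0 of 46. LRP5, a Wnt co-receptor, had 9 of 416, BTRC, a subunit of the ligase that degrades beta-catenin, 4 of 193, and TCF7L2, a transcription factor of the pathway, 2 of 835. CSNK1D, a casein kinase that phosphorylates Dishevelled, had 30 of 195 and held 2 adjoining regions enriched in all 4 libraries, with mean log2 folds of 3.42 ± 0.34 and 3.43 ± 0.18 (SD, n = 4). Of the listed genes that are mutated in Robinow syndrome besides NXN, DVL1 is the one with enriched peaks, while DVL3, ROR2, WNT5A and FZD2 had 0 of 41, 0 of 169, 0 of 93 and 0 of 12.

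Of 10 genes whose proteins have been described as partners of nucleoredoxin, 9 had called peaks, beside 13367 of all 19879 protein-coding genes. Of the 9, 3 had an enriched peak and 2 held a region enriched in all 4 libraries. These are 33.3% and 22.2% of the 9, beside 8.34% and 2.09% of all protein-coding genes with a called peak, and with so few genes the shares are coarse. The median was 84 called peaks per gene in this list, against 16 over all protein-coding genes, so the shares do not compare like with like. Both of these encode phosphofructokinase subunits, which catalyse the committed step of glycolysis. PFKP had 101 enriched of 208 called peaks and 6 such regions, the highest at a mean log2 fold of 5.27 ± 0.38, and PFKL had 12 of 115 and 1 region at 3.56 ± 0.27 (SD, n = 4). The third, PFKM, had 0 of 69. DVL1 was the other partner with enriched peaks, and FLII, SEC63, PPP2CA and KLHL12 had none. Of the 852 called peaks in the partner genes 117 were enriched (13.7%), beside 0.847% over all protein-coding genes. Of those 117, 101 lay in PFKP.

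Of the 5 protein-coding genes nearest to NXN on each side, 8 of 10 had called peaks, beside 13367 of all 19879 protein-coding genes. Of the 8 with called peaks, 1 had an enriched peak. That is 12.5% of the 8, beside 8.34% of all such genes, and 0.430% of the called peaks in the neighbours were enriched, beside 0.847%. ABR, a long gene beyond TIMM22 with 474 called peaks on the same strand, had 0 enriched. VPS53, which encodes a tethering factor for endosome-derived vesicles, had 5 of 421 and 1 region enriched in all 4 libraries, from 619431 to 619604, with log2 folds of 4.52, 3.76, 3.59 and 3.81 (mean 3.92 ± 0.41, SD, n = 4). GEMIN4, GLOD4, MRM3, TLCD3A, TIMM22 and YWHAE had called peaks but 0 enriched ones.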

How the data were processed

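Per the submitters' processing notes, UMI-tools 1.1.1, cutadapt 3.2 and STAR 2.7.7a were used and the builds hg38 and GRCh38.p13 are named. The peak caller, the p-value test, the scaling of IP to input and any adjustment are not given in the sources used here. The authors deposited 1 headerless list per IP library. Each peak has a −log10 p and a log2 fold, which the authors computed from IP and input before they deposited the lists. The first was recognised by its range from 0 to 400 and the second by its taking both signs. In this work starts were made 1-based, peaks were assigned to spans of the RefSeq table (GRCh38.p14) by their midpoint, and merging was by strand. Rows of that table on patches or unplaced scaffolds were left out. For gene ranks the strand with more called peaks was used. Regions called in all 4 libraries, or called enriched in all 4, are counts over the lists without a test.

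The gene, the lists and the limits were chosen with earlier results of these data known. The named genes are NXN, its regions in at least 3 libraries, list members with a region enriched in all 4, and the 5 nearest genes by distance. Other list members, the site at 841399, the segments, the 5 kb and 100 nt distances and the span parts were chosen after their values were seen. The merging was tested on simulated peaks with a known layout. The software was Python 3.11.15 with numpy 2.4.6, pandas 2.3.3 and matplotlib 3.10.9.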

Additional observations from a re-analysis of the deposited data

Results flagged for a closer look

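In segment 1 of the cluster replicate 2 stood apart, with a log2 fold of 3.32 against 4.86 to 5.17 in the other 3 libraries, a gap of 0.831 of the whole range, just past the critical value of Dixon's test for 4 samples. Of 29 sets of 4 values examined it was the only one to pass, and chance passes about 1 in 20.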

How the results depend on the processing

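Of 49 alternative values for the 6 counts and levels of NXN, 43 stayed within the margin (1.5 times for counts, 1 SD otherwise), and 6 moved. A −log10 p of at least 5 lowered the share of enriched peaks from 4.71% to 3.29%. Calling peaks on a log2 fold of 4 or more alone gave 4 enriched peaks per library against 6.75, a share of 2.79%, and 1 region enriched in all 4 libraries against 3. Merging at 50% of the shorter peak gave 5 such regions. A length-weighted mean lowered the fold of the strongest region from 6.30 to 5.32. Each of these follows from the alternative's own construction (stricter limits, finer merging, averaging over lower peaks). Leaving out 1 replicate at a time gave 140 to 148 called peaks, 6.33 to 7 enriched peaks, shares of 4.41% to 5.01%, 3 regions throughout, a fold of 6.19 to 6.45 for the strongest region and 43 to 46 regions called in the remaining 3 libraries, against 36 in all 4. No paired analysis was possible because the deposited folds are themselves IP against matched input, and inputs carry no list. The search for GCATG in the cluster was not run, since no genome sequence was used here. Without read counts the precision of a single fold is unknown.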
